A study of Homo sapiens with 18 samples.

Results

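The genes described here encode the core machinery of RNA interference and microRNA action: the nuclease DROSHA with its partner DGCR8, the export receptor XPO5, the nuclease DICER1 with its partner TARBP2, the Argonaute proteins AGO1, AGO2, AGO3 and AGO4, and the Argonaute-binding scaffold TNRC6A. Members were the probe sets that carry 1 of these 10 symbols and no other, a probe set being the group of short probes that reports a transcript. This gave 31 probe sets for 9 of the 10 genes, out of 41091 single-symbol probe sets and 19775 genes in the table. DGCR8 was not analysed, because its 4 probe sets also carry the symbol MIR1306, a microRNA encoded inside the DGCR8 gene. AGO2 kept 1 probe set, and 3 others with a second symbol were not used.

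Expression was measured on Affymetrix arrays in DU145 and CWR22Rv1, established human prostate cancer cell lines. DU145 comes from a brain metastasis and CWR22Rv1 from a relapsed xenograft. Per the labels, cells were transfected by Lipofectamine with a scrambled siRNA as control, with siRNA against Stat3, or with siRNAs against Stat5a and Stat5b, and were harvested after 48 h. This made 6 groups of 3 arrays, 18 in all. Every group, the controls included, therefore received siRNA duplexes, and untransfected cells were not analysed here. The labels give triplicates with unpooled RNA but do not say that these were separate cultures, so p-values reflect only the spread among these samples, and that spread may be technical.

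In animal cells a microRNA gene is transcribed as a long primary transcript. DROSHA and the RNA-binding DGCR8 cut a hairpin out of it in the nucleus, XPO5 carries the hairpin to the cytoplasm, and DICER1, assisted by TARBP2, trims it to a short duplex. An Argonaute protein keeps 1 strand of that duplex as a guide and so forms the RNA-induced silencing complex. Among the Argonautes AGO2 is the one known for cutting a well-matched target, and TNRC6A, a GW182 protein, links Argonaute to the deadenylation and decapping enzymes that destroy the target mRNA. Transfected siRNA enters this pathway downstream of DROSHA and is loaded into Argonaute.

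The microRNA that shares its probe sets with DGCR8 is shown with its seed, bases 2 to 8 of the mature strand, in capitals. Both strands lie on the plus strand of chromosome 22 within DGCR8 (RefSeq, GRCh38.p14), at chr22:20086072-20086093 and chr22:20086112-20086129.
hsa-miR-1306-5p: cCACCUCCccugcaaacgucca
hsa-miR-1306-3p: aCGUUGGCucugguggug

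The deposited values are log2 expression values. A step of 1 on this scale is a doubling, and percentages of control were computed from the log2 change. Array medians lay between 5.16 and 5.20, and arrays of a group correlated at 0.993 to 0.998 across probe sets, which are not independent replicates. STAT3 fell with its siRNA to 32.6% of the DU145 control and 45.7% of the CWR22Rv1 control, and Stat5a/b siRNA lowered STAT5B to 39.1% and 53.4%. STAT5A was not called in either line (-0.30 and -0.34, with adjusted p of 0.101 and 0.146). Of 7 luminal prostate markers 5 were measured, and their summed log2 value ran from 24.04 to 25.74 on DU145 arrays and from 40.35 to 41.42 on CWR22Rv1 arrays. KLK2 averaged 3.54 in DU145 control and 10.14 in CWR22Rv1 control, whereas KLK3 stood at 6.69 and 6.76.

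DICER1 was the only one of the 9 genes called lower in all 4 comparisons of an siRNA with control. AGO4 rose with both siRNAs in DU145 and, in CWR22Rv1, with that against Stat3. TNRC6A fell with Stat3 siRNA and rose with Stat5a/b siRNA in DU145, and AGO1, AGO2 and, by its brightest probe set, AGO3 fell with Stat5a/b siRNA in that line. AGO1 fell with Stat5a/b siRNA in CWR22Rv1 as well. DROSHA, XPO5 and TARBP2 were not called against control in either line. Called means an adjusted p below 0.05 in limma, a linear model fitted to every gene, after Benjamini-Hochberg adjustment over 19775 genes. Each gene stood there by its brightest probe set.

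With Stat3 siRNA in DU145, 3 of the 9 genes were called (1 higher and 2 lower), where 15.8% of all genes were (7.51% higher and 8.25% lower). Their median change was -0.12, and that of all genes 0.0056. With Stat5a/b siRNA in DU145, 6 were called (2 higher, 4 lower), where 24.3% of all genes were (11.8% higher, 12.5% lower), with medians of -0.14 and 0.011. In CWR22Rv1, 2 were called with Stat3 siRNA (1 higher, 1 lower) and 2 with Stat5a/b siRNA (both lower). Of all genes, 4.77% were called in the former (2.75% higher, 2.02% lower) and 6.46% in the latter (3.16% higher, 3.30% lower). The median changes there were 0.11 and -0.0195 for the 9 genes and -0.0042 and 0.024 for all genes. The siRNA arrays lay entirely beyond the control arrays for 6, 7, 6 and 7 of the 9 genes in these comparisons, against 26.2%, 34.4%, 32.3% and 31.1% of all genes. Both comparisons within a line share the same 3 control arrays. Between the siRNAs, 4 of the 9 genes were called in DU145 (22.1% of all genes) and 3 in CWR22Rv1 (10.8%). The effect of Stat3 siRNA differed between the lines for 2 of them (3.00%), as did that of Stat5a/b siRNA (11.9%).

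**Figure D1:**
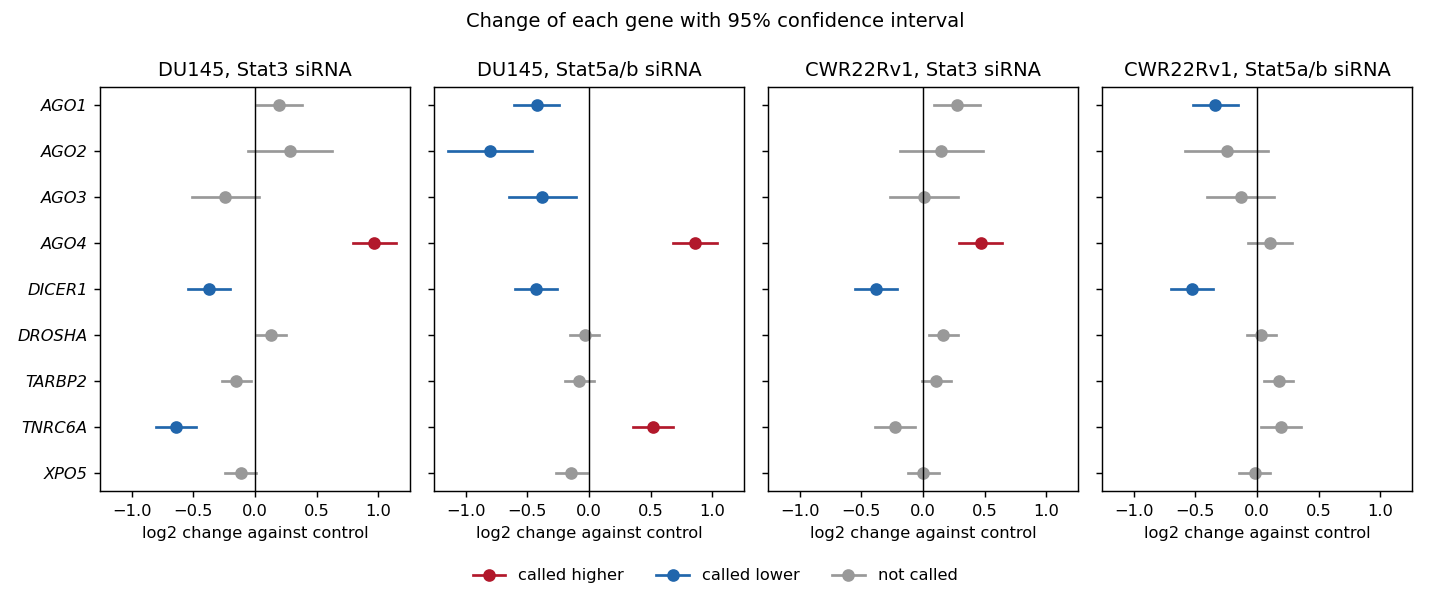
Log2 change against control (x axis) of the 9 genes in each siRNA comparison, with the 95% confidence interval as a line; red and blue points were called higher and lower at an adjusted p under 0.05, grey points were not called. DICER1 lies below 0 in all 4 panels, and TNRC6A lies on opposite sides of 0 with the 2 siRNAs.

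**Figure D2:**
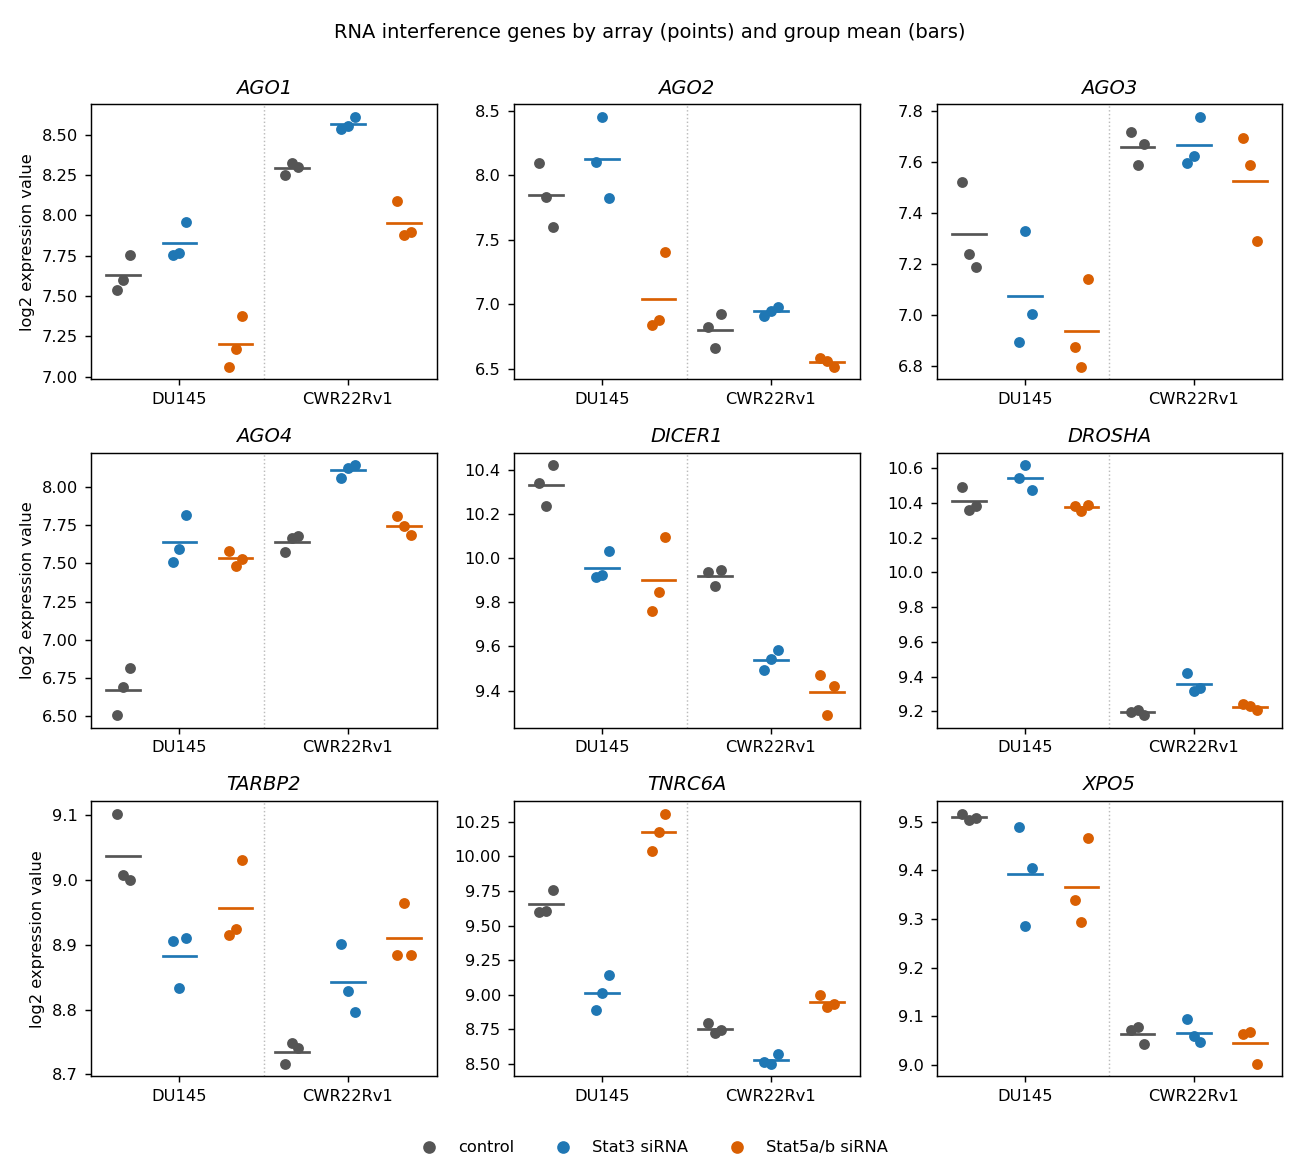
Log2 expression value (y axis, its own scale in each panel) of the 9 genes on each of the 18 arrays, with the group mean as a bar; left of the dotted line are DU145 arrays, right of it CWR22Rv1 arrays. The AGO4 control arrays of DU145, at 6.51 to 6.82, lie below every other AGO4 value.

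By their brightest probe sets, neither DROSHA nor XPO5 was called against control. DROSHA, the nuclease that starts microRNA maturation, read 10.49, 10.36 and 10.38 in DU145 control, 10.54, 10.62 and 10.48 with Stat3 siRNA and 10.38, 10.36 and 10.39 with Stat5a/b siRNA. The CWR22Rv1 arrays read 9.20, 9.21 and 9.18, then 9.42, 9.32 and 9.33, then 9.24, 9.23 and 9.21. Its Stat3 siRNA arrays overlapped control in DU145 and lay above control in CWR22Rv1. The changes with Stat3 siRNA were 0.13 ± 0.055 (adjusted p = 0.121) and 0.16 ± 0.055 (adjusted p = 0.11), and with Stat5a/b siRNA they were -0.036 (95% confidence interval -0.15 to 0.081) and 0.034 (-0.083 to 0.15). Compared directly in DU145, the Stat5a/b siRNA arrays stood lower than the Stat3 siRNA arrays (-0.17 ± 0.055, adjusted p = 0.0356). That call was lost without Stat3 siRNA replicate 1 or 2 or Stat5a/b siRNA replicate 1 or 2 (adjusted p from 0.068 to 0.12). Quantile normalization (adjusted p = 0.0509), array weights (0.0616) and DU145 fitted alone (0.191) lost it too. Fitted on CWR22Rv1 alone, the Stat3 siRNA change passed (adjusted p = 0.0445).

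XPO5, the exportin for hairpin precursors, read 9.52, 9.50 and 9.51 in DU145 control, 9.49, 9.29 and 9.41 with Stat3 siRNA and 9.34, 9.29 and 9.47 with Stat5a/b siRNA. Both siRNA groups lay below the tightly grouped control arrays without a call (-0.12, adjusted p = 0.232, and -0.14, adjusted p = 0.0984). Without Stat5a/b siRNA replicate 3 the latter was -0.19 and passed (adjusted p = 0.0309). A further XPO5 probe set, 223057_s_at, was called lower in DU145 with Stat5a/b siRNA (-0.28, adjusted p = 0.0427 over 54613 probe sets), and the remaining one measured -0.0092. In CWR22Rv1 the 9 XPO5 arrays spanned 9.003 to 9.09, with changes of 0.0025 (-0.13 to 0.13) and -0.019 (-0.15 to 0.11).

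DICER1, the cytoplasmic nuclease that makes the final duplex, was lower with each siRNA in each line. In DU145 its log2 values were 10.34, 10.24 and 10.42 in control, 9.92, 9.93 and 10.03 with Stat3 siRNA and 9.76, 9.85 and 10.10 with Stat5a/b siRNA. Those of CWR22Rv1 were 9.94, 9.88 and 9.95, then 9.49, 9.54 and 9.58, then 9.47, 9.29 and 9.42. No siRNA array reached the control arrays of its line. The falls were to 77.1% of control (-0.38 ± 0.081, adjusted p = 0.00395) and 74.2% (-0.43 ± 0.081, adjusted p = 0.000926) in DU145. In CWR22Rv1 they were to 76.8% (-0.38 ± 0.081, adjusted p = 0.0115) and 69.4% (-0.53 ± 0.081, adjusted p = 0.000702). The CWR22Rv1 fall with Stat3 siRNA missed the threshold without control replicate 3 (-0.37, adjusted p = 0.056) and without Stat3 siRNA replicate 1 (-0.36, adjusted p = 0.0586).

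The size of the DICER1 change was not called different between siRNAs or lines. Stat5a/b minus Stat3 siRNA gave -0.056 (-0.23 to 0.12) in DU145 and -0.15 (-0.32 to 0.024) in CWR22Rv1. The change in CWR22Rv1 minus that in DU145 was -0.0053 (-0.25 to 0.24) for Stat3 siRNA and -0.10 (-0.34 to 0.15) for Stat5a/b siRNA, with adjusted p of 0.99 and 0.656.

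DICER1 has 6 probe sets, and the 3 brightest measured below control in all 4 comparisons. Probe set 213229_at measured -0.45, -0.53, -0.27 and -0.49 with Stat3 and Stat5a/b siRNA in DU145 and then in CWR22Rv1, and 206061_s_at measured -0.32, -0.53, -0.27 and -0.54. Both were called in DU145 with Stat5a/b siRNA (adjusted p = 0.0401 and 0.0283 over all probe sets) and in no other of these comparisons. The other 3, with mean values between 3.28 and 4.41, were not called against control, and the highest of them, 216260_at, measured 0.54 with Stat3 siRNA in CWR22Rv1. With the mean of all 6 probe sets the DICER1 falls with Stat3 siRNA were not called, at -0.21 in DU145 (adjusted p = 0.0684) and -0.074 in CWR22Rv1 (adjusted p = 0.705).

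TARBP2, the double-stranded RNA-binding partner of DICER1, was not called against control. It read 9.10, 9.01 and 8.9998 in DU145 control, 8.91, 8.83 and 8.91 with Stat3 siRNA and 8.91, 8.92 and 9.03 with Stat5a/b siRNA. The CWR22Rv1 arrays read 8.72, 8.75 and 8.74 in control, then 8.90, 8.83 and 8.80, then 8.88, 8.96 and 8.88. With Stat3 siRNA the arrays lay below control in DU145 and above it in CWR22Rv1. None of the 4 changes (-0.15 and -0.08, then 0.11 and 0.18) was called, with adjusted p from 0.0774 to 0.365. The last of them passed in 5 alternative settings, among them quantile normalization (adjusted p = 0.0389) and CWR22Rv1 fitted alone (0.0406). The first passed with genes of a mean log2 value under 5 left out (0.0371). The Stat5a/b siRNA effect differed between the lines by 0.26 ± 0.079 (adjusted p = 0.0454). The call was lost when DU145 control replicate 1 or 2, DU145 Stat5a/b siRNA replicate 1 or 2, or any 1 of the 6 CWR22Rv1 arrays was left out (adjusted p from 0.0603 to 0.114). The other TARBP2 probe set, 239389_at, measured 0.38 and 0.19 in DU145 and 0.30 and 0.29 in CWR22Rv1, all above 0 and none called.

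AGO4, an Argonaute without known slicing activity, showed the largest rise among the 9 genes. In DU145 it read 6.51, 6.69 and 6.82 in control, 7.51, 7.60 and 7.82 with Stat3 siRNA and 7.58, 7.49 and 7.53 with Stat5a/b siRNA. The 6 siRNA arrays stood well above the 3 control arrays and overlapped each other. This was 196% of control (0.97 ± 0.084, adjusted p = 8.12e-07) and 181% (0.86 ± 0.084, adjusted p = 2.12e-06). In CWR22Rv1 the control arrays read 7.58, 7.66 and 7.68 and the Stat3 siRNA arrays 8.06, 8.12 and 8.14, a rise to 138% (0.47 ± 0.084, adjusted p = 0.00366). The Stat5a/b siRNA arrays of CWR22Rv1, at 7.81, 7.75 and 7.68, began at the highest control array and were not called (0.11, -0.072 to 0.28, adjusted p = 0.603). By group mean AGO4 stood lowest in DU145 control and highest in CWR22Rv1 with Stat3 siRNA. Between them lay DU145 with Stat5a/b siRNA, CWR22Rv1 control and DU145 with Stat3 siRNA, whose ranges overlap, then CWR22Rv1 with Stat5a/b siRNA. The range of that last group lay within that of DU145 with Stat3 siRNA (7.51 to 7.82).

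The AGO4 rise was smaller in CWR22Rv1 than in DU145. The difference between the lines was -0.50 ± 0.12 for Stat3 siRNA (adjusted p = 0.0304) and -0.75 ± 0.12 for Stat5a/b siRNA (adjusted p = 0.000794). The call with Stat3 siRNA was lost when any 1 of 8 arrays was left out, namely DU145 control replicate 1 or 2, DU145 Stat3 siRNA replicate 3, replicate 2 or 3 of the CWR22Rv1 control, or any replicate of CWR22Rv1 with Stat3 siRNA (adjusted p from 0.0548 to 0.0836). Within CWR22Rv1, Stat5a/b siRNA arrays were lower than Stat3 siRNA arrays (-0.36 ± 0.084, adjusted p = 0.00978), and in DU145 the same difference was -0.11 (-0.29 to 0.067). AGO4 has 4 probe sets, and only the brightest, 227930_at, was called against control. The next, 222842_at with a mean of 6.03, measured 0.047 and -0.01 in DU145 and 0.31 and 0.02 in CWR22Rv1, and 219190_s_at measured 0.31, 0.29, 0.36 and 0.0046. The fourth, 1569408_at, averaged 2.46. With the mean of the 4 probe sets neither difference between the lines was called (-0.045, adjusted p = 0.871, and -0.27, adjusted p = 0.0785).

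AGO1 fell with Stat5a/b siRNA in both lines and lay above control with Stat3 siRNA in both. It read 7.54, 7.60 and 7.75 in DU145 control, 7.76, 7.77 and 7.96 with Stat3 siRNA and 7.06, 7.17 and 7.38 with Stat5a/b siRNA. Those of CWR22Rv1 were 8.25, 8.33 and 8.30, then 8.53, 8.56 and 8.61, then 8.09, 7.88 and 7.89. The 3 groups of a line did not overlap in either line. In DU145 Stat5a/b siRNA lowered it to 74.4% of control (-0.43 ± 0.087, adjusted p = 0.00178), and in CWR22Rv1 to 79.1% (-0.34 ± 0.087, adjusted p = 0.0272). With Stat3 siRNA the differences of 0.20 and 0.27 were not called (adjusted p = 0.15 and 0.0895), the former passing with the replicate block (adjusted p = 0.0478) and the latter with CWR22Rv1 fitted alone (adjusted p = 0.0245). Stat5a/b against Stat3 siRNA gave -0.62 ± 0.087 in DU145 (adjusted p = 6.83e-05) and -0.61 ± 0.087 in CWR22Rv1 (adjusted p = 0.000224). The fall in CWR22Rv1 was not called when any 1 of the 3 control arrays or Stat5a/b siRNA replicate 2 or 3 was left out (-0.30 to -0.36, adjusted p from 0.066 to 0.124).

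A second AGO1 probe set was called in both directions in CWR22Rv1. Probe set 228120_at read 7.63, 7.61 and 7.63 in CWR22Rv1 control, 7.88, 7.96 and 7.92 with Stat3 siRNA and 7.28, 7.12 and 7.17 with Stat5a/b siRNA. Its changes were 0.30 ± 0.073 (adjusted p = 0.0458) and -0.43 ± 0.073 (adjusted p = 0.00275) there, and 0.20 ± 0.073 (adjusted p = 0.12) and -0.53 ± 0.073 (adjusted p = 9.71e-05) in DU145. Of the dimmer pair, 222576_s_at fell in DU145 with Stat5a/b siRNA (-0.66, adjusted p = 0.0299) and 239036_at measured -0.39 (adjusted p = 0.054). In CWR22Rv1 they measured -0.16 and 0.037, and the mean of all 4 probe sets was not called there (-0.22, adjusted p = 0.0906).

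AGO2, the slicing Argonaute, fell in DU145 with Stat5a/b siRNA to 57.3% of control (-0.80 ± 0.16, adjusted p = 0.00147). Its arrays read 8.10, 7.83 and 7.60 in control, 8.10, 8.45 and 7.82 with Stat3 siRNA and 6.84, 6.88 and 7.41 with Stat5a/b siRNA. Replicate 3 of the last group stood closest to control, and no array of that group reached it. In CWR22Rv1 the arrays read 6.82, 6.66 and 6.92, then 6.91, 6.95 and 6.98, then 6.58, 6.56 and 6.52, and the change with Stat5a/b siRNA, whose arrays lay below control, was not called (-0.25, -0.59 to 0.091, adjusted p = 0.484, and 0.042 with that line fitted alone). The changes with Stat3 siRNA were 0.28 (-0.056 to 0.62) and 0.15 (-0.19 to 0.49). The difference between the lines in the Stat5a/b siRNA effect was 0.55 ± 0.23 (adjusted p = 0.128), and without DU145 Stat5a/b siRNA replicate 3 it was 0.74 and passed (adjusted p = 0.0291). Stat5a/b against Stat3 siRNA in DU145 gave -1.09 ± 0.16 (adjusted p = 0.000118).

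AGO3 probe sets disagreed. The brightest, 219426_at, fell in DU145 with Stat5a/b siRNA (-0.38 ± 0.13, adjusted p = 0.0415), from 7.52, 7.24 and 7.19 in control to 6.87, 6.80 and 7.14, and the call was lost without control replicate 1 or 2 or Stat5a/b siRNA replicate 1 or 2 (adjusted p from 0.0579 to 0.188) and with DU145 fitted alone (0.102). Adjusted over all probe sets it was not called (0.0592). By contrast 241091_at rose, from 5.16, 5.21 and 5.29 to 5.57, 5.53 and 5.64 (0.36 ± 0.080, adjusted p = 0.00517), and so did 228932_at (0.37 ± 0.12, adjusted p = 0.0432). The mean of the 4 AGO3 probe sets changed by 0.093 (adjusted p = 0.448), so no direction is given for the gene. With Stat3 siRNA no AGO3 probe set was called in either line.

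**Figure D3:**
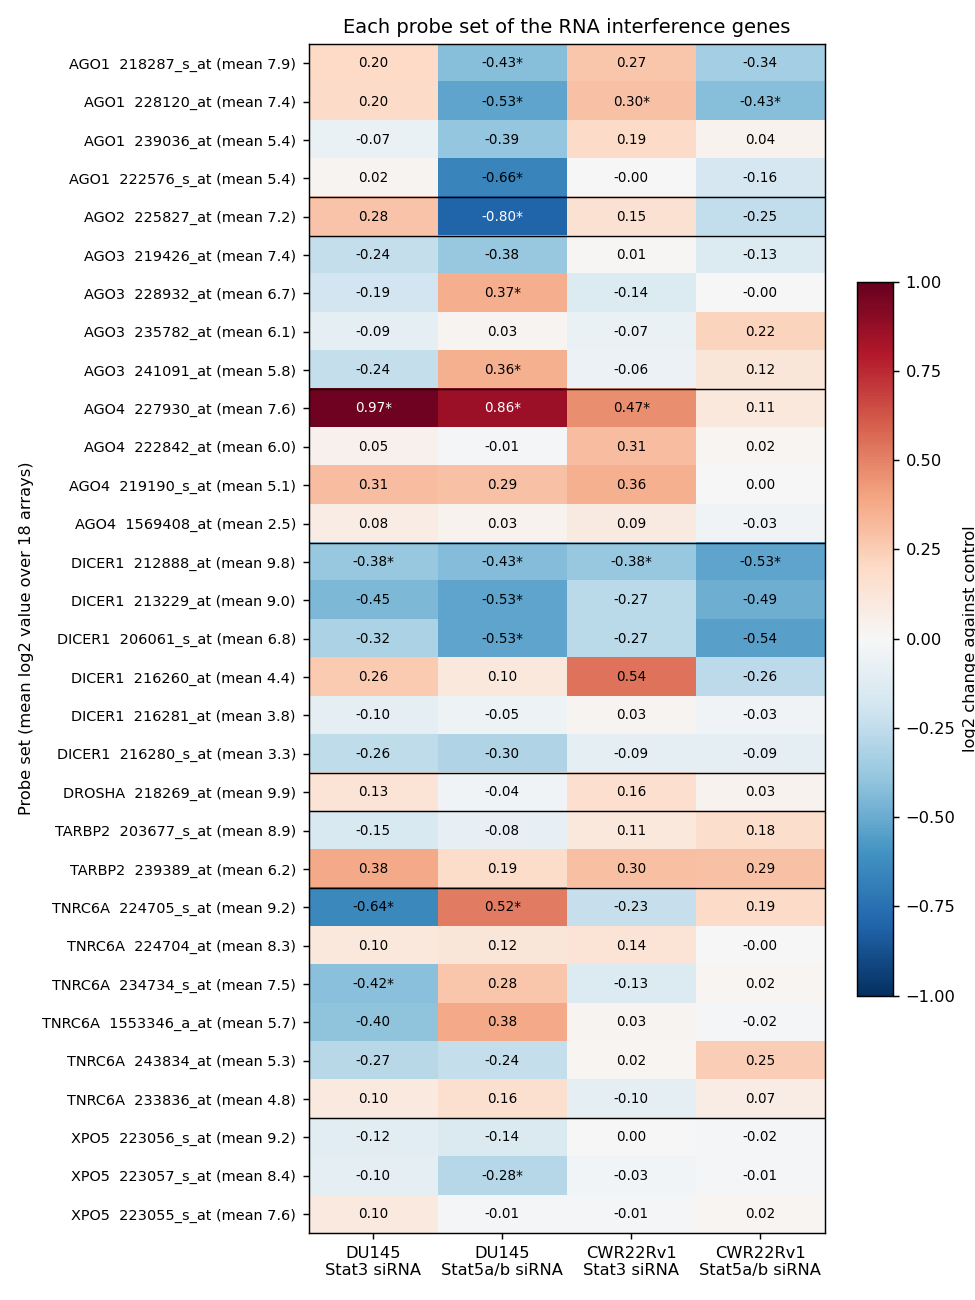
Log2 change against control (colour and printed value) of each of the 31 probe sets in the 4 comparisons, ordered within a gene by the mean log2 value given in brackets; an asterisk marks an adjusted p under 0.05 over all 54613 probe sets that are not controls. The 3 brightest DICER1 probe sets are below 0 in all 4 columns, whereas AGO3 and TNRC6A hold probe sets of opposite sign in the second column.

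Over all 31 probe sets, 4 were called with Stat3 siRNA in DU145 (1 higher, 3 lower; 9.02% of all probe sets called) and 12 with Stat5a/b siRNA (4 higher, 8 lower; background 15.6%). In CWR22Rv1 3 were called with Stat3 siRNA (2 higher, 1 lower; background 2.00%) and 2 with Stat5a/b siRNA (both lower; background 3.10%).

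TNRC6A, the GW182 scaffold that recruits deadenylases to Argonaute, moved in opposite directions with the siRNAs in DU145. There it read 9.60, 9.61 and 9.76 in control, 8.89, 9.01 and 9.14 with Stat3 siRNA and 10.04, 10.17 and 10.31 with Stat5a/b siRNA. The 3 groups did not overlap. It fell to 64.1% of control with Stat3 siRNA (-0.64 ± 0.076, adjusted p = 2.2e-05) and rose to 143% with Stat5a/b siRNA (0.52 ± 0.076, adjusted p = 0.000112). The direct difference between the siRNAs was 1.16 ± 0.076 (adjusted p = 2.57e-08).

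In CWR22Rv1 the order was the same, with smaller steps. TNRC6A read 8.80, 8.73 and 8.74 in control, 8.51, 8.50 and 8.57 with Stat3 siRNA and 9.0004, 8.91 and 8.93 with Stat5a/b siRNA, again without overlap. Neither change was called against control (-0.23, adjusted p = 0.108, and 0.19, adjusted p = 0.172), although both passed with this line fitted alone (adjusted p = 0.0153 and 0.0247). Stat5a/b against Stat3 siRNA was called (0.42 ± 0.076, adjusted p = 0.00157). The Stat3 siRNA effect differed between the lines by 0.41 ± 0.11 (adjusted p = 0.0495), a call lost when any 1 of the 12 arrays other than DU145 Stat3 siRNA replicate 3 was left out (adjusted p from 0.0651 to 0.112). The Stat5a/b siRNA effect differed by -0.32 ± 0.11 (adjusted p = 0.0632) and passed without DU145 control replicate 3 (0.0348) or DU145 Stat5a/b siRNA replicate 1 (0.028).

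TNRC6A has 6 probe sets, which did not all share this pattern. Probe set 234734_s_at followed it in DU145 (-0.42 ± 0.12, adjusted p = 0.0362 with Stat3 siRNA, and 0.28, adjusted p = 0.139 with Stat5a/b siRNA), and so did 1553346_a_at in sign (-0.40 and 0.38, neither called). The second brightest, 224704_at, did not: it read 8.18, 8.03 and 8.09 in control, 8.26, 8.23 and 8.10 with Stat3 siRNA and 8.15, 8.15 and 8.35 with Stat5a/b siRNA (0.10 and 0.12, with intervals of -0.054 to 0.26 and -0.036 to 0.28). Nor did the dimmer 243834_at and 233836_at in DU145. In control, with Stat3 siRNA and with Stat5a/b siRNA they averaged 5.67, 5.40 and 5.43, and 4.80, 4.90 and 4.96. In CWR22Rv1 the means of 1553346_a_at in the same order, 5.57, 5.60 and 5.55, did not show the pattern. Which transcripts each probe set reports was not examined. With the mean of the 6 probe sets the CWR22Rv1 difference between the siRNAs was not called (0.13, adjusted p = 0.161).

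Between the control arrays of the lines all 9 genes differed, where 56.9% of all genes did. CWR22Rv1 was lower in DROSHA (-1.22 ± 0.055, or 43% of DU145, adjusted p = 4.2e-12), AGO2 (-1.04 ± 0.16, 48.5%), TNRC6A (-0.90 ± 0.076, 53.5%), XPO5 (-0.44 ± 0.060), DICER1 (-0.41 ± 0.081) and TARBP2 (-0.30 ± 0.056). It was higher in AGO4 (0.97 ± 0.084, 196%), AGO1 (0.66 ± 0.087, 158%) and AGO3 (0.34 ± 0.13, adjusted p = 0.032). The slicing Argonaute was thus lower in CWR22Rv1 and the other Argonautes higher, by their brightest probe sets. For AGO3 the other probe sets differed more (1.497, 1.60 and 1.17, each called), while the brightest was not called without DU145 control replicate 2 or 3 or CWR22Rv1 control replicate 1 or 3 (adjusted p from 0.0712 to 0.117). The second TARBP2 probe set had the opposite sign (0.98, adjusted p = 1.56e-06), and so had the TNRC6A probe set 224704_at (0.32, adjusted p = 0.00131) and the TARBP2 mean (0.34). AGO1 averaged over its 4 probe sets was not called (0.15, adjusted p = 0.095). Of markers of other cell types, the neuroendocrine and fibroblast sums also stood apart between the control lines. The leukocyte sums (7.35 to 7.99 in DU145, 7.70 to 8.01 in CWR22Rv1) and endothelial sums (13.82 to 14.19, 13.97 to 14.07) overlapped. The 3 neuroendocrine markers summed to 12.64 to 13.36 in DU145 and 15.39 to 15.77 in CWR22Rv1 on the log2 scale. SYP stood at 4.70 and 6.98 and CHGA at 5.30 and 6.01, whereas INSM1 went the other way (2.94 and 2.60). The 3 fibroblast markers summed to 11.25 to 12.05 and 17.34 to 17.77. Among them LUM differed most between the lines (2.56 and 8.12), while DCN read 4.73 and 5.02 and the COL1A2 arrays overlapped (4.38 and 4.45). The part of the luminal and these other markers in the differences was not tested.

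AGO4, AGO1 and AGO3 are neighbours on chromosome 1 (RefSeq, GRCh38.p14), at chr1:35807636-35857890, chr1:35869761-35930532 and chr1:35930718-36072500. With Stat5a/b siRNA in DU145 AGO4 rose while AGO1 fell. As a description over 18 arrays after each line's mean was subtracted, AGO1 and AGO2 had the highest correlation of any pair of the 9 genes (Pearson's r = 0.763) and AGO2 and TNRC6A the lowest (-0.825). For AGO1 and AGO4 it was 0.171. All pairs share the same arrays and groups.

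The promoters were searched for the palindrome TTCNNNGAA, the letters that STAT dimers are known to bind. The search covered the 250 bases before each start in the RefSeq table, 1 strand sufficing for a palindrome. The table matched 9 of the 10 genes, all but AGO2, in 15 windows, since DICER1 and TARBP2 have several starts in it. Of these, 0 of the 15 windows held the motif, against 6.57% of 35116 promoters. The absence says only that these letters are not in these windows. The AGO1 window (chr1:35882959-35883208) and the TNRC6A window lie well inside gene records that begin at chr1:35869761 and chr16:24610205. The bases before those ends were not searched. The windows of DICER1, AGO4 and TNRC6A, the genes with the clearest changes above, are printed 5′ to 3′ with CG dinucleotides in capitals. They hold 6, 20 and 21 of these, the median over all promoters being 11. For DICER1 the number depends on the start chosen, the other 4 windows holding 30, 11, 1 and 0. The DICER1 window is the most upstream of 5 on the minus strand (chr14:95158011-95158260), the AGO4 window is on the plus strand (chr1:35807766-35808015), and so is the TNRC6A window (chr16:24729401-24729650).
DICER1: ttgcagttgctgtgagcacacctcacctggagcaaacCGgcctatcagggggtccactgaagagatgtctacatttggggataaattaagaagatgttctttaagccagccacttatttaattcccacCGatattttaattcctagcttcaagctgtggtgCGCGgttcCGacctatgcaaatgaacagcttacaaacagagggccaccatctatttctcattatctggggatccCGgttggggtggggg
AGO4: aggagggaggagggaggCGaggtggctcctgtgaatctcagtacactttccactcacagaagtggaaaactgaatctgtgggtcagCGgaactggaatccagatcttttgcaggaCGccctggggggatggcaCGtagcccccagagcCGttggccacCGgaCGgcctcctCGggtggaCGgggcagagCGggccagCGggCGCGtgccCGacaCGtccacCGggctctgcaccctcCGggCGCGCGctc
TNRC6A: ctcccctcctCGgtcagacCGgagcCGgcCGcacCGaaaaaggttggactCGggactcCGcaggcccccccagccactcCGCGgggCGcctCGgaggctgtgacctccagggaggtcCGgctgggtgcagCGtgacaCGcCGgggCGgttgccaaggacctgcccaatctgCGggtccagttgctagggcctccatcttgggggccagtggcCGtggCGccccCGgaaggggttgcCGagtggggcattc

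Other genes of the small RNA pathway were taken from a list of 63, of which 60 were measured. With Stat3 siRNA in DU145, 5 rose and 5 fell, where 15.8% of all genes were called, and with Stat5a/b siRNA 13 rose and 6 fell, where 24.3% were. In CWR22Rv1, the counts were 3 and 1 with Stat3 siRNA (4.77% of all genes), then 2 and 1 with Stat5a/b siRNA (6.46%). Beside these shares, no count is read as particular to the list. The median changes of the 60 genes were 0.030, 0.021, 0.010 and 0.017. The genes named next have the smallest adjusted p among those called in a comparison, up to 4 in each.

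GW182 paralogs of TNRC6A changed in DU145 too. TNRC6C (0.67 ± 0.079, adjusted p = 2.06e-05) and TNRC6B (0.51 ± 0.12, adjusted p = 0.00815) rose with Stat3 siRNA, where TNRC6A fell. TNRC6B fell with Stat5a/b siRNA (-0.61 ± 0.12, adjusted p = 0.00151), where TNRC6A rose. In CWR22Rv1 TNRC6B measured 0.42 (adjusted p = 0.0595) and -0.41 (adjusted p = 0.0552), with the same signs and no call. The Stat3 siRNA effect on TNRC6C differed between the lines (-0.57 ± 0.11, adjusted p = 0.0122).

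Among the 19 GW182 and decay genes, the deadenylase CNOT6 was the one called in both lines with Stat5a/b siRNA. Its change was -0.67 ± 0.059 in DU145 (adjusted p = 6.99e-07) and -0.59 ± 0.059 in CWR22Rv1 (adjusted p = 1.11e-05), and it rose with Stat3 siRNA in CWR22Rv1 (0.24 ± 0.059, adjusted p = 0.0282), as did its paralog CNOT6L (0.31 ± 0.074). The decapping enzyme DCP2 rose in DU145 with Stat5a/b siRNA (0.68 ± 0.094, adjusted p = 6.51e-05), and the decapping-associated helicase DDX6 fell with Stat3 siRNA (-0.31 ± 0.067, adjusted p = 0.00445).

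Of the 7 measured Dicer partners and Argonaute loading factors, 3 fell with Stat3 siRNA in DU145, where 8.25% of all genes did, namely PTGES3, HSP90AB1 (-0.19, adjusted p = 0.0303) and FKBP4 (-0.28, adjusted p = 0.028), the last pair named after their values were seen. In CWR22Rv1 1 of the 7 fell, where 2.02% of all genes did. PTGES3, an HSP90 co-chaperone, fell in both lines, its change being -0.48 ± 0.046 in DU145 (adjusted p = 2.44e-06) and -0.35 ± 0.046 in CWR22Rv1 (adjusted p = 0.000342). The translin gene TSN, whose product with TSNAX removes the discarded strand, rose with Stat5a/b siRNA in both (0.50 ± 0.060, adjusted p = 1.67e-05, and 0.24 ± 0.060, adjusted p = 0.024). So did the cap-binding NCBP2 (0.47 ± 0.058, adjusted p = 2.05e-05, and 0.23 ± 0.058, adjusted p = 0.0215), 1 of 8 microprocessor cofactors. In CWR22Rv1 with Stat3 siRNA the remaining called gene was AJUBA (0.26 ± 0.061), which binds the silencing complex.

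**Figure D4:**
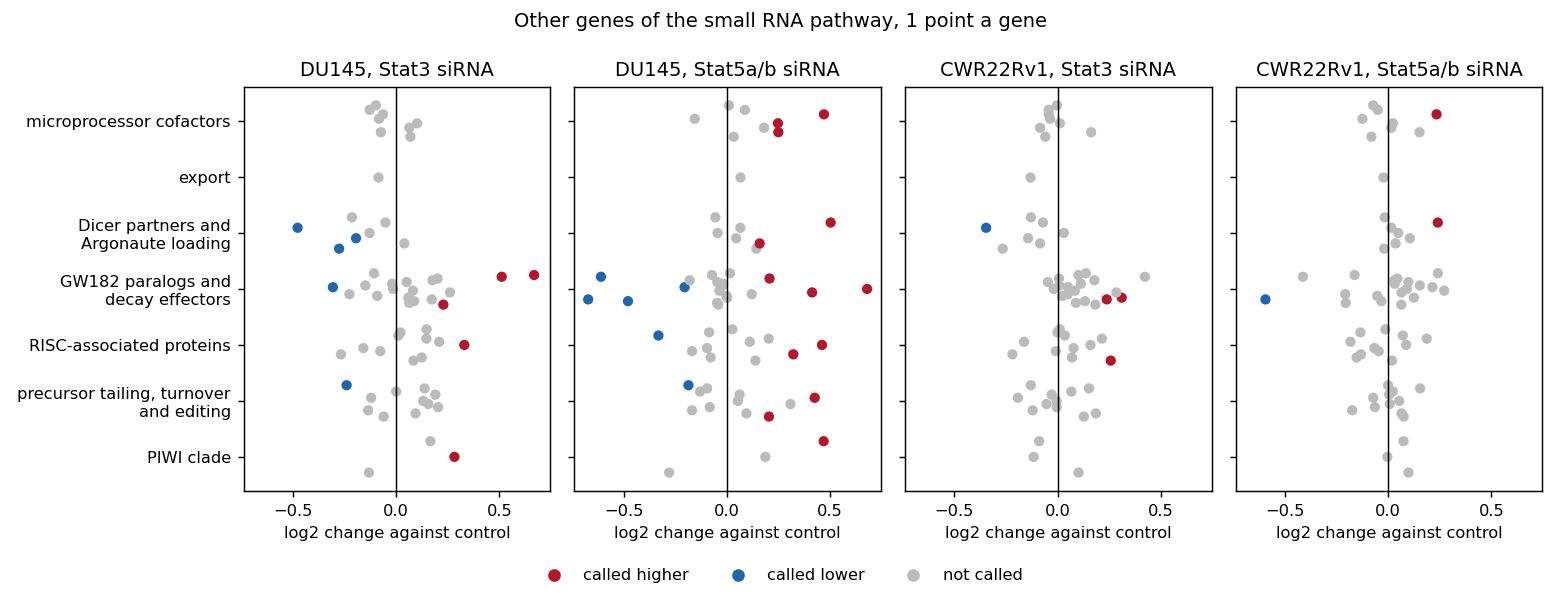
Log2 change against control (x axis) of 60 other genes of the small RNA pathway, a point for each gene, by the role in which it was listed; red and blue points were called higher and lower, grey points were not called, and vertical spread within a row only separates points. Called genes number 10, 19, 4 and 3 from left to right.

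The genes most like AGO4 over the 18 arrays, after each line's mean was subtracted, were HMMR (Pearson's r = 0.975), RAB8B (0.966) and TNFAIP1 (0.962). HMMR, a hyaluronan receptor, changed by 0.73 and 0.71 with Stat3 and Stat5a/b siRNA in DU145 and by 0.40 and 0.18 in CWR22Rv1, beside 0.97, 0.86, 0.47 and 0.11 for AGO4. The genes most like TNRC6A were PDE7A, a cyclic AMP phosphodiesterase (0.982), MSL1 (0.980) and PROSER1 (0.976). PDE7A measured -0.81 and 0.50 in DU145 and -0.39 and 0.10 in CWR22Rv1. These likenesses are descriptions chosen from 19775 genes on shared arrays.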

How the data were processed

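RNA of 18 samples was hybridised to 1-colour Affymetrix arrays. The authors deposited log2 expression values for 54675 probe sets, and RMA and limma are named in the submitters' processing notes, with versions not given in the sources used here. For the fit by gene, probe sets carrying 1 symbol (41091) were kept. Left out were 62 controls, 1801 with several symbols and those without a symbol. Each of 19775 genes stood by the probe set with the highest mean over the arrays. Any background correction and summary the authors applied can compress changes of dim probe sets, and 3 arrays a group limit the precision.

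A trial on simulated data came first, with independent arrays and, for each gene, the same spread in all groups. It does not cover the unequal spread here, where the median standard deviation of a gene within a group was 0.11 to 0.13 in DU145 and 0.07 to 0.08 in CWR22Rv1. The deposited values were used without further normalization in limma 3.58.1 under R 4.3.3. The model had 6 group means over all 18 arrays, with adjusted p-values from its moderated test, two-sided, under Benjamini-Hochberg. That gave 12 residual degrees of freedom. Log2 changes carry the standard error from this fit, which pools the spread of all groups. All 31 probe sets were also tested among 54613. Replicate numbers, taken from the labels, paired the arrays in 1 comparison, Stat3 siRNA with control in DU145, where deviations of same-numbered arrays correlated at 0.158 to 0.328. In the others at least 1 pair fell below 0.1.

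Named genes were the members, the siRNA targets, up to 4 called genes of the pathway list per comparison by adjusted p, and the 3 genes most correlated with each of the 2 members of smallest adjusted p. Members and lists were chosen with earlier results of these data known. Promoter, microRNA and gene coordinates came from RefSeq tables.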

Additional observations from a re-analysis of the deposited data

Results flagged for a closer look

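The response to an siRNA differed between the lines in 4 results, by a test of the difference itself in limma with Benjamini-Hochberg adjustment. AGO4 rose less in CWR22Rv1 than in DU145 with Stat3 siRNA, by -0.50 on the log2 scale (adjusted p = 0.0304), with all 3 siRNA arrays above all 3 control arrays in each line. With Stat5a/b siRNA the AGO4 difference was -0.75 (adjusted p = 0.000794), and in DU145 all 3 siRNA arrays lay above control. In CWR22Rv1 the lowest siRNA array (7.6825) barely cleared the highest control array (7.6816), and the change was not called (0.11, adjusted p = 0.603).

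TNRC6A differed between the lines by 0.41 with Stat3 siRNA (adjusted p = 0.0495), being below control on 3 of 3 arrays in both lines. TARBP2 differed by 0.26 with Stat5a/b siRNA (adjusted p = 0.0454), with 3 of 3 arrays above control in CWR22Rv1 and the DU145 groups overlapping. Of 12 fits with an array left out, 11 lost the TNRC6A call and 10 the TARBP2 call. Quantile normalization (adjusted p = 0.0652) and cyclic loess (0.0594) also lost the TNRC6A call. With the mean of all probe sets no AGO4, TNRC6A or TARBP2 difference between the lines was called.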

How the results depend on the processing

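The alternatives were the mean of all probe sets of a gene, quantile or cyclic loess normalization, a filter on a mean log2 value under 5, trended and robust variances, array weights, each line alone, the replicate number as a block, and each array left out. Over single genes and the settings other than leaving out an array, 595 values kept direction and side of the threshold, 36 passed anew, 17 no longer passed and 21 turned sign. For arrays left out the counts were 559, 4, 48 and 19.

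With the mean of all probe sets, 1 of the 9 genes was called with each siRNA in CWR22Rv1 and 0 in either difference between the lines. The main fit called 4.77% and 6.46% of all genes with Stat3 and Stat5a/b siRNA in CWR22Rv1, and 3.00% and 11.9% in the line differences. Shares with this setting are not given here, so these counts are not read as particular to the 9 genes. Sign turned for TARBP2 (0.11 and 0.054 with Stat3 and Stat5a/b siRNA in DU145, -0.059 between them, and 0.34 between the lines) and for AGO3. AGO3 gave 0.093 in DU145 with Stat5a/b siRNA, -0.065 and 0.052 for the siRNAs in CWR22Rv1, 0.28 (adjusted p = 0.0166) and 0.12 between the siRNAs in DU145 and CWR22Rv1, and -0.041 for the line difference with Stat5a/b siRNA. XPO5 gave -0.0105 with Stat3 siRNA in CWR22Rv1 and 0.0077 between the siRNAs, and DICER1 gave 0.13 for the line difference with Stat3 siRNA.

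With cyclic loess, AGO3 and XPO5 gave -0.0235 and -0.024 with Stat3 siRNA in CWR22Rv1, XPO5 gave 0.0009 with Stat5a/b siRNA and 0.025 between the siRNAs, and DROSHA gave -0.0022 for the Stat3 siRNA line difference. With quantile normalization AGO3 gave -0.028 and XPO5 -0.023 and 0.0195 with Stat3 siRNA and, for the last value, between the siRNAs in CWR22Rv1. Both left 1 of the 9 genes called in the Stat3 siRNA line difference, where the main fit called 3.00% of all genes.

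Array weights called 2980 and 2644 of all genes with Stat3 and Stat5a/b siRNA in CWR22Rv1, 4135 between them and 3584 in the Stat5a/b siRNA line difference, and 5, 4, 5 and 4 of the 9 genes. Each line alone called 1549, 2877 and 2379 of all genes in the DU145 comparisons, 2059, 2372 and 3775 in those of CWR22Rv1, and 5 of the 9 genes with either siRNA in CWR22Rv1. Trended and robust variances called 904 genes in the Stat3 siRNA line difference. The cause of these changes was not tested.

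Deviations of same-numbered arrays correlated over 0.1 in 5 of 9 pairs in DU145 (0.012 to 0.33), 3 of them between control and Stat3 siRNA, and in 1 of 9 in CWR22Rv1 (-0.067 to 0.14). As a hint from the data, 8 of 9 arrays in DU145 and 4 of 9 in CWR22Rv1 correlated best with their own number. With the replicate block, 903 of all genes were called in the Stat3 siRNA line difference. With Stat3 siRNA in CWR22Rv1 the block called 4 of the 9 genes. There the main fit called 4.77% of all genes, and the share with the block is not given here. AGO1 passed with Stat3 siRNA in DU145 (adjusted p = 0.0478) and CWR22Rv1 (0.0254), and TNRC6A with Stat3 (0.0198) and Stat5a/b siRNA (0.032) in CWR22Rv1 and in the Stat5a/b siRNA line difference (0.00939). AGO3 no longer passed with Stat5a/b siRNA in DU145 (0.0811), and STAT5A passed with its siRNA in DU145 (0.0349) and CWR22Rv1 (0.048). Between the control arrays of the lines AGO3 did not pass either (0.0933). There, however, the block compares the lines at the fitted level of replicate 1, so that value does not check the difference of group means. The block changed no other call among these genes.

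With an array left out, genes called ran from 448 to 547 and from 718 to 844 with Stat3 and Stat5a/b siRNA in CWR22Rv1, from 1388 to 1640 between them, and from 292 to 780 and 1677 to 2694 in the line differences. Of the 9 genes, 1 to 2 were called with either siRNA in CWR22Rv1, 0 to 1 in the Stat3 siRNA line difference and 1 to 3 in that of Stat5a/b siRNA. Sign turned within these ranges: AGO2 from -0.29 to 0.028, DICER1 from -0.049 to 0.043 and DROSHA from -0.0100 to 0.066 for the Stat3 siRNA line difference, and DICER1 from -0.17 to 0.0001 for that of Stat5a/b siRNA. Likewise AGO3 ran from -0.047 to 0.0435 and XPO5 from -0.0113 to 0.012 with Stat3 siRNA in CWR22Rv1, XPO5 from -0.031 to 0.0014 with Stat5a/b siRNA there, DROSHA from -0.062 to 0.0040 with Stat5a/b siRNA in DU145, and DICER1 from -0.15 to 0.015 and XPO5 from -0.081 to 0.021 between the siRNAs in DU145.

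Probe sets near the low end of the scale, such as the DICER1 probe sets with means of 3.28 to 4.41, limit what the mean of probe sets can show. No background signal was available to this re-analysis, so no detection call was made.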
